A study of Rattus norvegicus with 6 samples.

Results

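Antioxidant, glutathione and metallothionein genes were described in the endosalpinx of mated and unmated rats. The endosalpinx is the mucosa that lines the oviduct. The genes were chosen by symbol alone: glutathione peroxidases, peroxiredoxins, glutathione transferases, thioredoxins and proteins named after them, superoxide dismutases, glutamate-cysteine ligase, heme oxygenases, quinone reductases, sulfiredoxin, catalase, glutathione reductase and synthetase, and 3 metallothioneins. This gave 64 genes of the 14506 that carried 1 symbol on the array, and they were sorted into 12 families. All rats were adult Sprague-Dawley females of 240 to 280 g, with 1 array for each animal and 3 animals in each group. Unmated rats stayed isolated, were killed at 0130 h of estrus and are recorded with uterine edema. Mated rats were placed at 2200 h with fertile males on the day of pro-estrus, had sperm or a plug in the vagina when examined 30 min later, stayed with the males, and were killed 3 h after mating with abundant semen in the uterus. The company of a male therefore differed between the groups together with mating, and its effect cannot be told apart from that of mating.

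Aerobic cells turn superoxide into hydrogen peroxide with superoxide dismutases and remove the peroxide with catalase, glutathione peroxidases and peroxiredoxins. Glutathione and thioredoxin supply the electrons, and their reductases recharge them from NADPH. Glutathione transferases join glutathione to reactive molecules, and metallothioneins are small cysteine-rich proteins that hold zinc and copper. Many of these genes are switched on by the transcription factor Nrf2 when cells meet oxidants, and metallothionein genes by the zinc sensor Mtf1. In the oviduct this chemistry is of interest because sperm and eggs are both sensitive to peroxide.

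No member differed between mated and unmated rats beyond the spread of the animals after correction for the number of genes. By limma, 0 of the 64 members had an adjusted p under 0.05, as did 0% of all genes tested, with a smallest adjusted p = 0.984 in both. At an unadjusted p under 0.05 there were 3 members, against 4.57% of all genes: Hmox1 and Mgst2 were higher in mated rats (3.02% of all genes were called in that direction) and Gpx5 was lower (1.55%). These 3 are 4.69% of the members, close to the share among all genes. All 3 mated values lay on 1 side of all 3 unmated values for 5 members, or 7.81%, against 8.47% of all genes. Of these 5, Hmox1, Mgst2 and Gclm were on the higher side (5.24% of all genes) and Gpx5 and Txnrd2 on the lower side (3.23%). With 3 animals against 3, an exact permutation test of a single value cannot go below p = 0.1.

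Across the members the fold changes were centred on 0. In the deposited values 32 members were higher and 31 lower after mating, and the median log2 fold change was 0.00, beside 53.2% of all genes higher and a median of 0.01. After each array was centred on its median, 29 members were higher and 34 lower. The 95% confidence interval of the fold change lay wholly within 1.5-fold in either direction for 55 members (85.9%), beside 95.7% of all genes. The other 9 were Gpx3, Gsta3, Gstm2, Gstm5, Gstm6, Gstm7, Mgst2, Hmox1 and Nqo2, so for these the arrays do not bound a change to less than 1.5-fold.

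**Figure D1:**
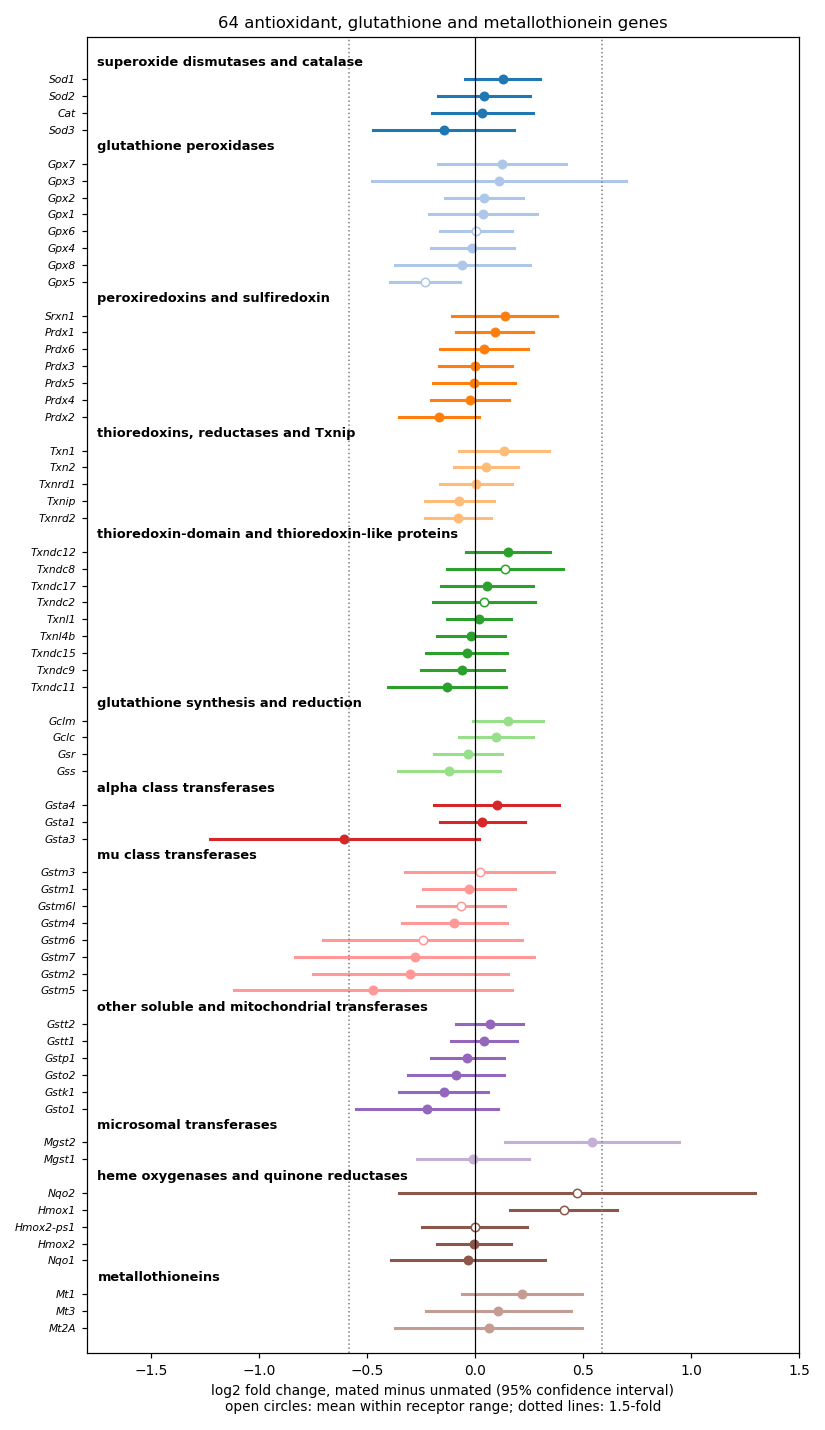
Log2 fold change of each of the 64 members, mated minus unmated (x axis), with its 95% confidence interval, grouped by family; open circles mark members whose mean lay within the receptor range (explained in the text) and dotted lines mark 1.5-fold. Of all the intervals, those of Hmox1, Mgst2 and Gpx5 alone leave out 0, and the widest belong to Nqo2, Gsta3 and Gstm5.

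Signal close to background was judged by the odorant and pheromone receptor genes on the same arrays, 1240 genes used mainly by sensory neurons. A gene whose mean log2 signal over the 6 arrays did not exceed 7.133, which 95% of those receptor genes stay under, is called within the receptor range. Of the members, 54 lay above it (84.4%) and 10 within it. The 10 were Gpx5 and Gpx6, Txndc2 and Txndc8, Gstm3, Gstm6 and Gstm6l, Hmox1, Nqo2 and Hmox2-ps1, a pseudogene by its symbol. Txndc2 and Txndc8 encode thioredoxins of spermatids, and Gpx5 a peroxidase of the epididymis. Epithelial markers were clearly above the range: all 7 measured of 8 secretory markers lay above it, among them Epcam at a mean of 12.54, and so did 6 of 7 ciliated markers, among them the regulator Foxj1 at 10.84.

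The first enzymes of the chain, superoxide dismutases and catalase, overlapped between the groups for all 4 genes. Sod1, the dismutase of the cytosol, gave log2 signals of 11.83, 11.86 and 11.77 in the unmated rats and 11.86, 11.93 and 12.05 in the mated rats, with 1 value in common. The log2 fold change was 0.13 ± 0.08 (SE; 95% confidence interval -0.05 to 0.30), the smallest p of the family. Sod2, the mitochondrial form, gave 10.70, 10.76 and 10.78 without mating and 10.89, 10.60 and 10.87 after it, so that the mated animals lay on both sides of the unmated ones. Sod3, secreted to the cell surface and matrix, gave 9.68, 9.68 and 9.45 in unmated and 9.14, 9.55 and 9.68 in mated rats, and its low value came from mated replicate 1. Cat, which splits hydrogen peroxide in peroxisomes, gave 10.26, 10.09 and 9.91 in unmated and 10.21, 10.04 and 10.11 in mated rats. The median log2 fold change of the 4 genes was 0.04, and all 4 intervals lay within 1.5-fold.

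Glutathione peroxidases, which use glutathione to reduce peroxides, numbered 8. After mating 5 were higher and 3 lower in the deposited values, 4 and 4 under both other scalings, and the median log2 fold change was 0.02. Gpx1, the common form of the cytosol, gave 11.47, 11.30 and 11.73 in unmated and 11.51, 11.53 and 11.57 in mated rats; the mated values lay inside the unmated range. Gpx4, which reduces lipid peroxides in membranes, differed by -0.01 (-0.21 to 0.18), and Gpx2, Gpx6, Gpx7 and Gpx8 by -0.06 to 0.12. Gpx3, the secreted form, had the widest spread of the family, with 8.90, 7.81 and 8.33 in unmated and 8.67, 8.16 and 8.54 in mated rats. The difference of 0.11 was small beside the SD of 0.55 among the unmated animals. Gpx5 gave 5.39, 5.39 and 5.47 in unmated and 5.25, 5.11 and 5.19 in mated rats, and the groups did not overlap. Its log2 fold change was -0.23 (-0.40 to -0.07; unadjusted p = 0.0106 by limma), and its mean of 5.30 lay well inside the receptor range. Gpx5 is also 1 of 10 genes on a list of male tract and sperm transcripts, of which 8 lay within the receptor range. On that list 5 genes were higher and 5 lower after mating, and 2 were under an unadjusted p of 0.05 by limma, Gpx5 and Tnp1, both lower, beside 1.55% of all genes in that direction. The groups did not overlap for these, beside 3.23% of all genes on the lower side, and for Prm1, a protamine of sperm. Prm1 was higher by 0.17 (unadjusted p = 0.0501 by limma), and 5.24% of all genes lay on that side without overlap. Prm2, another protamine on the list, differed by -0.02 and its groups overlapped. The summed signal of that list ran from 924 to 989 in unmated and from 911 to 1022 in mated rats.

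Peroxiredoxins, which reduce peroxide through thioredoxin, and sulfiredoxin, which repairs them after overoxidation, numbered 7. Prdx1, the abundant form of the cytosol, gave 12.19, 12.16 and 12.17 in unmated and 12.38, 12.26 and 12.15 in mated rats, and its second probe set gave a like difference (0.08 beside 0.09). Prdx2 gave 10.69, 10.78 and 10.83 in unmated and 10.54, 10.54 and 10.72 in mated rats, a log2 fold change of -0.17 (-0.35 to 0.02) and the smallest p of the family. Only mated replicate 3 reached into the unmated range. Prdx6, a peroxidase that also acts on phospholipids, differed by 0.04 (-0.16 to 0.24), and Prdx3 of the mitochondrion had a mean of 10.70 in both groups. Prdx4 and Prdx5 differed by -0.02 and -0.01. Srxn1, the sulfiredoxin and a known Nrf2 target, gave 7.44, 7.31 and 7.68 in unmated and 7.71, 7.52 and 7.61 in mated rats, and the groups overlapped through unmated replicate 3.

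Thioredoxin, its reductases and Txnip, the protein that binds and inhibits thioredoxin, had intervals within 1.5-fold for all 5 genes. After mating 3 were higher and 2 lower, or 2 and 3 after median centring. Txn1, the cytosolic thioredoxin, gave 11.60, 11.56 and 11.75 in unmated and 11.91, 11.67 and 11.73 in mated rats, a difference of 0.13 (-0.07 to 0.34). Txnrd1, its reductase, gave 9.46, 9.53 and 9.37 against 9.50, 9.41 and 9.46, a difference of 0.00 (-0.16 to 0.17). Txnip differed by -0.07 (-0.23 to 0.09) and Txn2, the mitochondrial thioredoxin, by 0.05 (-0.10 to 0.20). Txnrd2, the mitochondrial reductase, is named after its values were seen because its groups did not overlap: it gave 8.70, 8.61 and 8.63 in unmated and 8.60, 8.55 and 8.55 in mated rats. The nearest values of the groups were 8.61 and 8.60, and the log2 fold change was -0.08 (-0.23 to 0.07). Of the 9 genes named for a thioredoxin-like domain, 5 were higher and 4 lower, with log2 fold changes from -0.13 for Txndc11 to 0.15 for Txndc12, a thiol oxidoreductase of the endoplasmic reticulum.

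**Figure D2:**
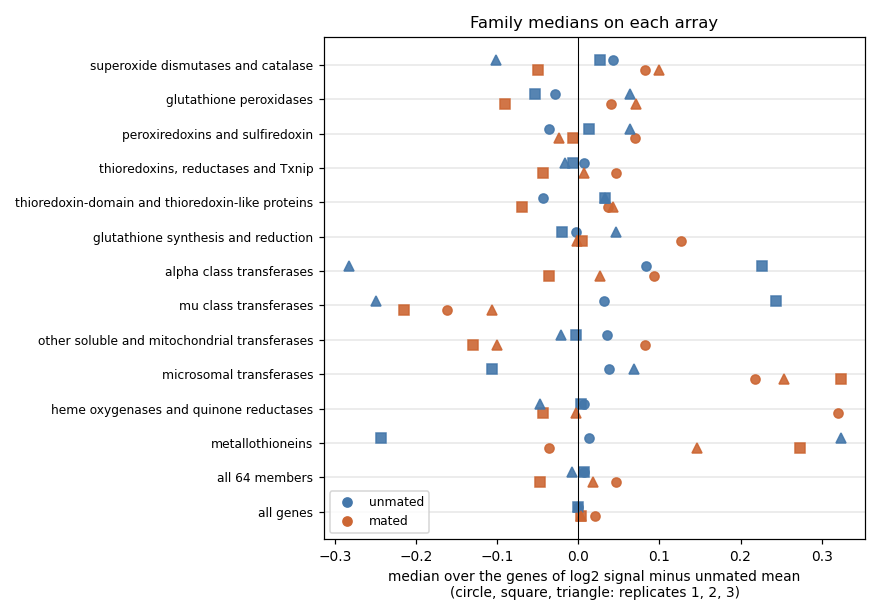
Median over the genes of each family of the log2 signal minus that gene's unmated mean (x axis), on each of the 6 arrays; blue marks unmated and orange mated rats, and circle, square and triangle mark replicates 1, 2 and 3. The thioredoxin and peroxiredoxin medians stay within 0.07 of 0 on every array, while the alpha, mu and metallothionein medians of the unmated rats lie apart from one another.

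Glutathione is made by glutamate-cysteine ligase, with a catalytic subunit Gclc and a modifier subunit Gclm, and then by Gss, and is recycled by Gsr. Gclm gave 9.63, 9.58 and 9.67 in unmated and 9.83, 9.70 and 9.81 in mated rats. The mated values were all above the unmated ones, with 9.67 and 9.70 as the nearest pair, and the log2 fold change was 0.15 (95% confidence interval -0.01 to 0.32; unadjusted p = 0.0602 by limma). Gclc gave 10.50, 10.45 and 10.55 in unmated and 10.65, 10.65 and 10.49 in mated rats, where mated replicate 3 lay with the unmated ones. Gss gave 9.09, 9.13 and 9.07 in unmated and 9.20, 8.83 and 8.89 in mated rats, a difference of -0.12 (-0.36 to 0.11). Gsr differed by -0.03 (-0.19 to 0.12). The ligase subunits were thus both higher on average and the 2 following enzymes both lower, none of them past the threshold, and the family median was 0.03.

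Heme oxygenases break heme down to biliverdin, iron and carbon monoxide, and Hmox1 is the inducible form. Hmox1 gave 6.92, 6.74 and 6.92 in unmated and 7.22, 7.11 and 7.48 in mated rats, and the groups did not overlap. The log2 fold change was 0.41 ± 0.11 (SE; 0.16 to 0.66), which is 1.33-fold, with the smallest p of all members (unadjusted p = 0.00521 and adjusted p = 0.984 by limma). The mean over all arrays, 7.07, was within the receptor range, so that the signal was close to background. In the 11 alternatives that kept Hmox1 the log2 fold change ran from 0.305 to 0.49. Erythroid markers, which come with heme, and macrophage markers, a cell type that expresses Hmox1, were set beside it. Of 5 measured erythroid markers out of 9 all 5 were higher after mating (4 after a second quantile normalization), with a summed signal from 1453 to 1822 in unmated and from 1543 to 2398 in mated rats; Alas2 and Epb42 lay within the receptor range. Their mean deviation from the unmated mean was 0.38 on mated replicate 3, the array with the highest Hmox1 signal, and -0.06 and 0.15 on the other two mated arrays. Of 9 macrophage markers 3 were higher and 6 lower (2 and 7 under both other scalings), and Cd163 alone lay within the receptor range. Their sums ran from 6893 to 6988 in unmated and from 4925 to 7797 in mated rats. Most of each sum came from Cd14 alone, so its range mainly shows that gene. Cd14 read 12.24, 12.30 and 12.27 in unmated and 12.52, 12.28 and 11.52 in mated rats. All 7 neutrophil markers lay within the receptor range. After mating 6 of them were higher, or 4 under both other scalings, with sums from 604 to 678 in unmated and from 649 to 719 in mated rats. Of these markers 2 were under an unadjusted p of 0.05 by limma, Elane at 0.22 and S100a8 at 0.26, beside 3.02% of all genes called higher. Of 5 endothelial markers 4 were measured, all above the receptor range, and 3 were higher after mating, or 2 under both other scalings. Their summed signal did not overlap between the groups, at 687 to 730 in unmated and 760 to 788 in mated rats. Among them Tie1, a receptor of endothelial cells, was higher by 0.33 (0.08 to 0.58, unadjusted p = 0.0156 by limma), without overlap. Of all genes, 3.02% were called higher at an unadjusted p under 0.05 by limma. Cdh5, Kdr and Pecam1 overlapped between the groups and differed by 0.05 (-0.16 to 0.25), -0.12 (-0.50 to 0.26) and 0.01 (-0.14 to 0.16). The separation of the summed signal therefore rests on Tie1. The part of any of these cells in the Hmox1 values was not tested, and in whole tissue fewer cells of a type and less RNA per cell cannot be told apart.

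Hmox2, the constitutive form, gave a difference of -0.01 (-0.18 to 0.16), and the pseudogene Hmox2-ps1 one of 0.00 (-0.25 to 0.24). Nqo1, a quinone reductase and a classical Nrf2 target, gave 8.23, 8.49 and 8.18 in unmated and 8.62, 8.11 and 8.07 in mated rats. It differed by -0.03 (-0.39 to 0.32), and mated replicate 1 was the highest of the 6.

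Nqo2, named after its values were seen, encodes a quinone reductase that uses dihydronicotinamide riboside as its donor. It gave 6.60, 6.69 and 6.49 in unmated and 8.05, 6.55 and 6.59 in mated rats. A single animal, mated replicate 1, lay 1.36 log2 units above the next highest, and the other 5 arrays spanned a narrow range. The log2 fold change was 0.47 (-0.35 to 1.29), and without mated replicate 1 it was -0.02. A gap of more than 1 log2 unit between the highest array and the next was found for 3 of the 14506 genes, of which Nqo2 and Gstm5 are 2, and a gap of that size below the others for 11. The nearest measured genes on either side of Nqo2 in the RefSeq gene order of the rat assembly GRCr8 were Serpinb6a and Serpinb9d. On mated replicate 1 Serpinb6a read 10.12, with 9.69 to 9.87 on the other arrays, and Serpinb9d read 4.86, with 5.17 to 5.47 on the others.

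**Figure D3:**
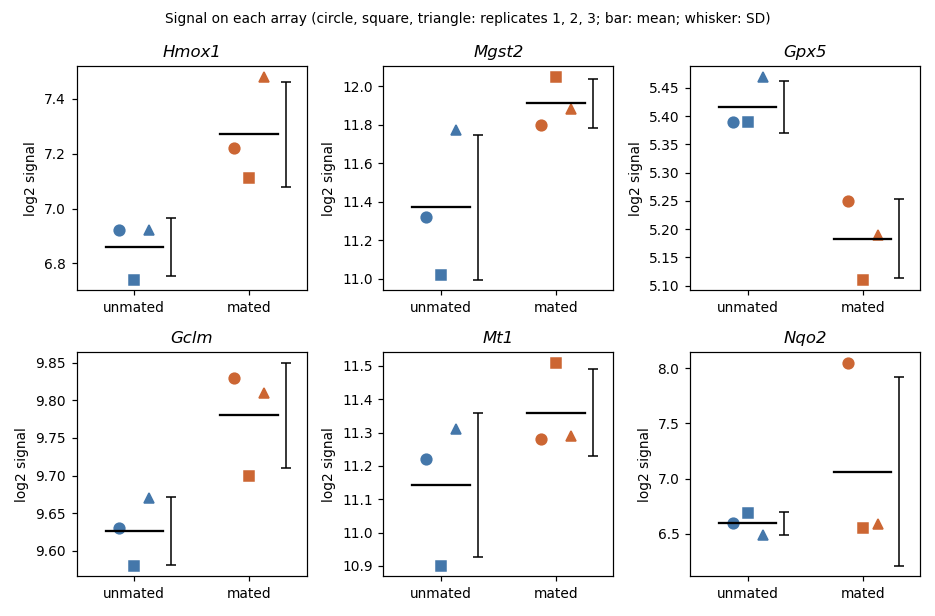
Log2 signal on each array (y axis, a separate range for each gene) of 6 members in unmated (blue) and mated (orange) rats; circle, square and triangle mark replicates 1, 2 and 3, the bar is the mean and the whisker the SD (n = 3 per group). Hmox1, Mgst2, Gpx5 and Gclm do not overlap between groups, Mt1 does, and the high mean of Nqo2 in mated rats comes from replicate 1.

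Microsomal transferases sit in membranes and act on lipid substrates. Mgst2, which can also make leukotriene C4, gave 11.32, 11.02 and 11.77 in unmated and 11.80, 12.05 and 11.88 in mated rats. The groups did not overlap, but unmated replicate 3, at 11.77, came close to the lowest mated value of 11.80. The log2 fold change was 0.54 ± 0.17 (SE; 0.14 to 0.94), or 1.45-fold, with an unadjusted p = 0.0147 and adjusted p = 0.984 by limma. Over the 12 alternatives it ran from 0.365 to 0.74. The unadjusted p stayed under 0.05 in 11 of them and was 0.0525 without mated replicate 2. Mgst1 gave 11.89, 11.90 and 11.50 in unmated and 11.77, 11.73 and 11.76 in mated rats, a difference of -0.01 (-0.27 to 0.25). Unmated replicate 3 was thus the highest unmated array for Mgst2 and the lowest for Mgst1.

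The mu class of soluble transferases was lower after mating for 7 of its 8 genes as deposited and with arrays centred on their medians, and for all 8 after a second quantile normalization. The median log2 fold change was -0.17, but -0.03 without unmated replicate 2 and -0.31 without unmated replicate 3, and 0 of the 8 were under an unadjusted p of 0.05 by limma. In the RefSeq gene order all 8 lie in 1 cluster on chromosome 2, and their sequences are alike, so which copy a probe set measured is uncertain. Gstm5 gave 9.14, 10.17 and 8.99 in unmated and 8.81, 9.15 and 8.92 in mated rats. Unmated replicate 2 lay 1.02 above the next array, and the groups overlapped. Its log2 fold change was -0.47 (-1.12 to 0.17), and -0.105 without unmated replicate 2. Gstm7, Gstm2 and Gstm6, named after their values were seen, had the same high animal. Gstm7 gave 9.75, 10.71 and 9.77 in unmated and 9.73, 9.96 and 9.70 in mated rats; its fold change of -0.28 became 0.04 without unmated replicate 2. Gstm2 gave 10.07, 10.27 and 9.40 in unmated and 9.65, 9.60 and 9.59 in mated rats, with -0.30 becoming -0.12 without that animal. Gstm6, within the receptor range, gave 6.33, 6.69 and 5.87 in unmated and 5.82, 6.09 and 6.25 in mated rats, with -0.24 becoming -0.05 without it. Gstm3, Gstm4 and Gstm6l differed by 0.02, -0.10 and -0.07. Gstm1 did not follow them: its values were 13.43, 13.44 and 13.35 in unmated and 13.53, 13.21 and 13.39 in mated rats, and it differed by -0.03 (-0.24 to 0.18).

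Of the alpha class, Gsta3 was also highest in unmated replicate 2. It gave 7.87, 8.35 and 7.09 in unmated and 7.06, 7.17 and 7.26 in mated rats, so that 2 unmated animals were high and the third lay among the mated ones. The log2 fold change was -0.61 (-1.23 to 0.02; unadjusted p = 0.0551 by limma), the most negative of all members. It was -0.32 without unmated replicate 2, where the unadjusted p by limma was 0.174 and that of Gstm2 was 0.52. Without unmated replicate 3 the fold change was -0.95, with an unadjusted p by limma of 0.000422, and that of Gstm2 was 0.000471. The adjusted p by limma of both genes was 0.674 in the latter fit. Gsta1 and Gsta4, the other two alpha members, differed by 0.03 and 0.10, and neither showed a high value on unmated replicate 2 of that size. A pair of further probe sets that matched both Gsta2 and Gsta5 was left out for having 2 symbols.

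The same unmated animals differed in the mean of the stromal marker lists, though not in each marker. Of 7 fibroblast markers, all 7 were lower after mating in the deposited values, and 5 after a second quantile normalization. The median log2 difference was -0.09. Beside 1.55% of all genes called lower, 1 of these markers, Dpt, was under an unadjusted p of 0.05 by limma. Their mean deviation was 0.15 and 0.10 on unmated replicates 1 and 2 and -0.24 on unmated replicate 3, and -0.27, -0.13 and -0.14 on the mated arrays. The mu class median on the same arrays was 0.03, 0.24 and -0.25, then -0.16, -0.215 and -0.11. The summed fibroblast signal ran from 1844 to 2225 in unmated and from 1733 to 2014 in mated rats. By the mean over all arrays, Lum alone of the list lay within the receptor range. Dpt, at 7.22 by that mean, lay just above the range. Its mated values of 6.86, 7.17 and 6.94 had a mean of 6.99, which is close to background. Dcn, which encodes the matrix protein decorin, read 7.79 on unmated replicate 2, more on unmated replicate 1 and 7.08 on unmated replicate 3. In mated rats Dcn read 7.39, 7.22 and 7.21, a difference of -0.35 (-0.84 to 0.14). Col1a2, Col3a1, Lum and Pdgfra were likewise lowest of the unmated arrays on replicate 3. Col1a1 and Dpt showed no such drop, at 9.32, 9.32 and 9.30 and at 7.38, 7.58 and 7.38 on the unmated arrays. Of 5 smooth muscle markers 4 were lower after mating, with mean deviations of 0.06, 0.14 and -0.20 on the unmated and -0.16, 0.02 and 0.01 on the mated arrays. The part of stromal cells in the transferase values was not tested.

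**Figure D4:**
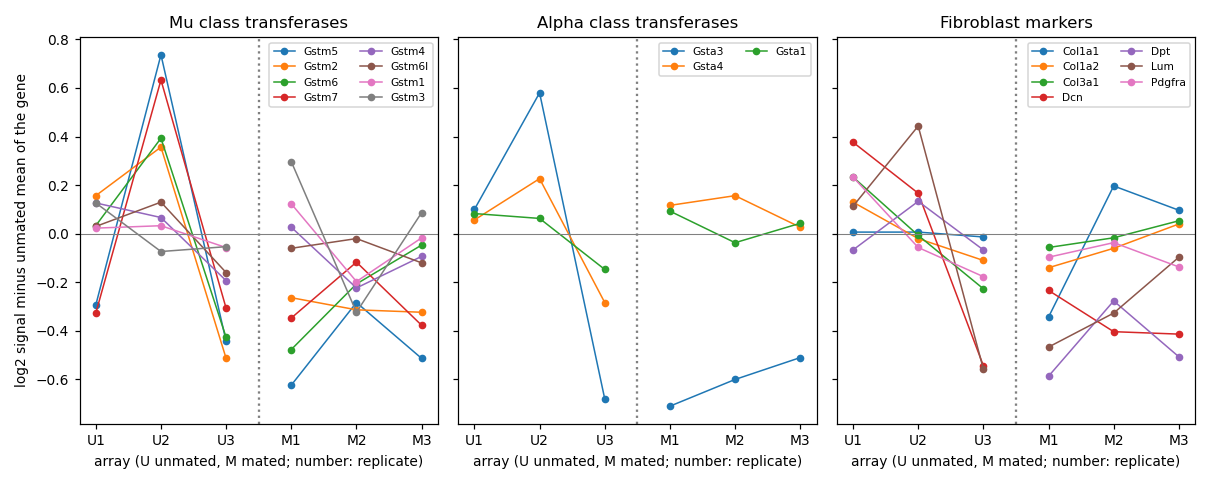
Log2 signal minus the unmated mean of each gene (y axis) on the 3 unmated (U1 to U3) and 3 mated (M1 to M3) arrays, for the 8 mu class members, the 3 alpha class members and 7 fibroblast markers; lines join the values of a gene within a group and carry no order. Gstm5, Gstm7 and Gsta3 stand highest on U2, and Gsta3, Gstm2, Dcn and Lum are low on U3 and on all mated arrays.

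The remaining soluble and mitochondrial transferases numbered 6, with 2 higher and 4 lower after mating, a median log2 difference of -0.06 and every interval within 1.5-fold. Gstk1, the kappa form of mitochondria and peroxisomes, gave 9.38, 9.60 and 9.36 in unmated and 9.39, 9.30 and 9.21 in mated rats. Gstp1, the pi form of many epithelia, differed by -0.04 (-0.21 to 0.13), and Gstt2, a theta form, by 0.07 (-0.09 to 0.22). The omega form Gsto1 had the largest difference of the 6, -0.22 (-0.55 to 0.11), and Gsto2 and Gstt1 differed by -0.09 and 0.04.

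Antioxidant response elements are the sites that Nrf2 binds with small Maf proteins. The core TGACNNNGC was searched on both strands in the 250 bases before each RefSeq start in GRCr8. A promoter entry was matched for 53 of the 64 members; Hmox1 and Mgst2 were among the 11 not matched. The core occurred before 13 of these 53 genes (24.5%), counting a gene with several starts once if any held it, and in 10.1% of all 33469 promoters. Of the transferases named above as high in unmated replicate 2, Gsta3, Gstm5 and Gstm7 held the core and Gstm2 and Gstm6 did not. They had been picked by their values on that array. Gsta4, Gstk1 and Mgst1 were also highest there, at 10.20, 9.60 and 11.90, and held no core. Gstm6l, highest there at 6.83, had no promoter entry. The windows of Gsta3, Gstm5 and Gstm7 are printed here with the core in capitals. They were chosen because the SDs of these genes among unmated rats, 0.64, 0.64 and 0.55, were the 3 largest of all members. Gsta3 has a pair of starts in RefSeq and the window of the one with the core is printed. The windows lie at chr9:31154739-31154988 for Gsta3, chr2:198219519-198219768 for Gstm5 and chr2:198260320-198260569 for Gstm7. Counting the base before the start as -1, the core begins at -17 in Gsta3, at -113 and -53 in Gstm5 and at -14 in Gstm7, each on the gene's own strand.
Gsta3: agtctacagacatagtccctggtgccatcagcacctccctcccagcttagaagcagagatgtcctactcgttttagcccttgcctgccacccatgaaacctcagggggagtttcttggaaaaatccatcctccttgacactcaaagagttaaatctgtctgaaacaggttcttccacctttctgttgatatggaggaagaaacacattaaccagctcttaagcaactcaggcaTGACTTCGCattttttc
Gstm5: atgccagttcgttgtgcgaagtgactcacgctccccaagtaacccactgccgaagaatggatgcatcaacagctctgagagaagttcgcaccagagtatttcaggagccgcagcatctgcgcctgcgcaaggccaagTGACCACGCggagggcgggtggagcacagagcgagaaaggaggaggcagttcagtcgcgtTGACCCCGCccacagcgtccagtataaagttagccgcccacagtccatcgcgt
Gstm7: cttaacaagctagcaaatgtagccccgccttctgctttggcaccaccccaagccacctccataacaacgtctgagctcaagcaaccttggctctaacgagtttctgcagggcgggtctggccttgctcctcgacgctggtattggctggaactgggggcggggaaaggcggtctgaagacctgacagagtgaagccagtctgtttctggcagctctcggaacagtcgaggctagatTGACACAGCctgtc

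A match of letters describes these windows and says nothing of binding in this tissue. The other members with the core, beside Mt1 and Mt2A, were Gclm, Sod2, Prdx1, Txnrd1, Gstp1, Gpx2, Hmox2 and Txndc11, whose log2 fold changes lay between -0.13 and 0.15. Nqo1, Srxn1 and Gclc had no match within this window.

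The metallothioneins were higher on average after mating for all 3 genes under each scaling, with a median log2 difference of 0.11, and the groups overlapped for each. That median was 0.02 without unmated replicate 2, 0.03 without mated replicate 2, 0.22 without mated replicate 1 and 0.27 without unmated replicate 3. Mt1 gave 11.22, 10.90 and 11.31 in unmated and 11.28, 11.51 and 11.29 in mated rats. Its low value came from unmated replicate 2, and the log2 fold change was 0.22 (-0.06 to 0.49), or 0.095 without that animal. A second probe set of Mt1 gave a difference of 0.23. Mt2A gave 10.97, 10.62 and 11.28 in unmated and 10.70, 11.23 and 11.13 in mated rats, with a difference of 0.06 (-0.37 to 0.50) that turned to -0.105 without unmated replicate 2 and to -0.04 without mated replicate 2. Mt3, known first from brain, gave 9.13, 9.11 and 9.62 in unmated and 9.25, 9.54 and 9.39 in mated rats, a difference of 0.11 (-0.23 to 0.44). In the unmated rats all 3 were highest in replicate 3 and lowest in replicate 2. The family median was 0.01, -0.24 and 0.32 on unmated and -0.04, 0.27 and 0.15 on mated arrays, so the spread among unmated animals exceeded the difference between groups. The copies are alike in sequence, and signal may be shared between them.

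Metal response elements, which Mtf1 binds, were searched by their core in the spellings TGCACNC and TGCGCNC, on both strands. They occurred before 15 of the 53 members with a promoter (28.3%, by gene, any start counting) and in 20.6% of all promoters (by promoter). All 3 metallothionein promoters held them, with 6 matches in Mt1, 4 in Mt2A and 3 in Mt3. They are shown because these genes carry the pathway's best known metal sites; capitals mark the metal core and the antioxidant core TGACNNNGC, which do not overlap here. Mt1 and Mt2A each held 1 antioxidant core, beginning at -101 and -237, and Mt3 held none. All 3 lie on the minus strand of chromosome 19, at chr19:10832976-10833225 for Mt1, chr19:10838709-10838958 for Mt2A and chr19:10856081-10856330 for Mt3.
Mt1: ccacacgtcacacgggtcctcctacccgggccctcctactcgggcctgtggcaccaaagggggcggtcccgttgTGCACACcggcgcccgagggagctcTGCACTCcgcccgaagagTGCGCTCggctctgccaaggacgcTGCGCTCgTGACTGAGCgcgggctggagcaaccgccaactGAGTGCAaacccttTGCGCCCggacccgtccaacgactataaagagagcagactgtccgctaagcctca
Mt2A: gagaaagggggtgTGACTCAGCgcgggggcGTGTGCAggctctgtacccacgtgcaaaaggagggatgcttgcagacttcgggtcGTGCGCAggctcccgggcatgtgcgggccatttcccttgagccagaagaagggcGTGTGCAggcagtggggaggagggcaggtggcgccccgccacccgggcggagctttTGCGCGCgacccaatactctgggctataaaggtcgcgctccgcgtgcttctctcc
Mt3: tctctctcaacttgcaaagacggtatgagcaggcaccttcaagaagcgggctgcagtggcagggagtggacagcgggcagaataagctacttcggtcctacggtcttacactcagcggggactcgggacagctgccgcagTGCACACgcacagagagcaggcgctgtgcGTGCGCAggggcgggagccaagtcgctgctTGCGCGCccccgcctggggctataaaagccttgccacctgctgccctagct

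Genes around the pathway that are not members were read from 7 lists, and 0 of their genes passed the adjusted threshold by limma. In the Nrf2 system 8 of 9 genes were higher after mating, or 7 once arrays were centred on their medians. The median log2 difference was 0.04, with 0 genes under an unadjusted p of 0.05. Nfe2l2, which encodes Nrf2, gave 11.31, 11.27 and 11.32 in unmated and 11.39, 11.31 and 11.37 in mated rats, 0.06 higher (-0.09 to 0.21). Keap1, which holds Nrf2 for degradation, differed by 0.00 (-0.17 to 0.18), Bach1, a repressor of Hmox1, by 0.04 (-0.18 to 0.26), and the small Maf gene Mafg by 0.11 (-0.07 to 0.30). Mtf1 differed by 0.02 (-0.20 to 0.25), in a list of iron, heme and zinc genes with 7 of 11 higher and a median of 0.03. The smallest p of that list belonged to Blvra, the biliverdin reductase that follows heme oxygenase, at -0.16 (-0.35 to 0.03).

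Genes of glutathione turnover, cystine supply and thiol transfer were higher for 14 and lower for 6 of 21, with a median of 0.04, and after median centring for 12 and 9. In this list 2 genes were under an unadjusted p of 0.05, Cth and Ggt1, both higher, beside 3.02% of all genes in that direction. Cth, which makes cysteine from cystathionine, gave 6.87, 6.75 and 6.87 in unmated and 6.98, 7.10 and 6.97 in mated rats, at a mean of 6.92 that is close to background. Ggt1, the surface enzyme that starts the breakdown of glutathione, gave 10.14, 10.08 and 10.19 in unmated and 10.26, 10.52 and 10.28 in mated rats, a difference of 0.22 (0.01 to 0.42; unadjusted p = 0.0394 by limma). On this list 4 of 21 genes had groups that did not overlap, beside 8.47% of all genes: Cth and Ggt1 on the higher side, and Abcc1, an exporter of glutathione conjugates, at -0.10 (-0.26 to 0.07) and Glrx5, a mitochondrial glutaredoxin, at -0.14 (-0.30 to 0.02) on the lower side. The cystine carrier Slc7a11, named after its values were seen, gave 7.21, 7.30 and 6.98 against 7.56, 7.26 and 7.39, a difference of 0.24 (-0.01 to 0.49). Of the NADPH suppliers 6 of 8 were measured, with 2 higher and 4 lower, or 1 and 5 under both other scalings; Idh2, the mitochondrial isocitrate dehydrogenase, was at -0.13 (-0.29 to 0.03) and its groups did not overlap. Of the oxidant producers 14 of 16 were measured, with 8 higher and 6 lower, or 7 and 7 under both other scalings. Among them 1 was under an unadjusted p of 0.05 by limma, beside 3.02% of all genes called higher. That gene was Aox1, an aldehyde oxidase within the receptor range, at 0.30 (0.09 to 0.51). Of the genes for selenoproteins and their synthesis 12 of 15 were measured, with 3 higher and 9 lower and a median of -0.04; Pstk, a kinase that acts on the selenocysteine tRNA, was at -0.18 (-0.40 to 0.04). The last list, of other repair and stress genes, had 6 higher and 7 lower of 15 measured out of 17, 5 and 10 after median centring and 6 and 9 after a second quantile normalization; its smallest p belonged to the paraoxonase Pon3 at 0.12 (-0.10 to 0.33).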

How the data were processed

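RNA of 6 animals was hybridised to Affymetrix whole-transcript arrays from 0.3 µg of total RNA each, per the labels. Log2 signals for 29214 probe sets were deposited by the authors; RMA and Affymetrix Expression Console are named in the submitters' processing notes, and the annotation build was not given in the sources used here. The log2 scale was read from the values. Probe sets with 1 symbol (15310) were reduced to the one of highest mean for each of 14506 genes. A higher signal of one probe set than of another does not show more transcript. The median signal of an array ran from 7.89 to 7.94; arrays carry no read depth, and their number limits the precision.

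Groups were compared with limma 3.58.1 in R 4.3.3 (lmFit, eBayes), two-sided, with Benjamini-Hochberg adjustment over all genes at 0.05. The fit was tested on simulated data. P-values set the difference between groups against the spread between animals, with the variance of each gene moderated over all genes. Genes to be named were a fixed list of 23, the members of smallest p and of highest mean in each family, and members at an unadjusted p under 0.05. Of these, Gpx4, Prdx6, Txnip, Gsr, Gsta1, Gstt2 and Txndc12 are given by their difference alone, and the others with values on each array. The members and lists were chosen with earlier results of these data known. Families and lists are described by counts and medians, without a test. Promoter sequences are from RefSeq (GRCr8). Alternatives comprised the replicate number as a block, 2 other scalings, a filter on dim genes, the mean of a gene's probe sets, an intensity trend, and leaving out each array. Genes of the lists that were not measured are not analysed here.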

Additional observations from a re-analysis of the deposited data

How the results depend on the processing

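Over 12 alternatives, 0 genes and 0 members passed the adjusted threshold by limma under each. Members at an unadjusted p under 0.05 numbered 3 in the deposited values and from 3 to 11 when arrays were left out in turn: 11 without unmated replicate 3, among them Gsta3, Gstm2, Gstm5, Mt1 and Mt3, beside 5.81% of all genes, and 5 without mated replicate 1, beside 9.67% of all genes. They numbered 5 with the replicate block, where Gsta3 and Gstm5 joined, beside 4.63% of all genes; same-numbered arrays deviated together with correlations of 0.00, -0.08 and 0.07, so the numbers were not taken as pairs. The median of thioredoxins, reductases and Txnip ran from -0.038 without unmated replicate 3 to 0.042 without unmated replicate 2, beside 0.00. Medians of the other families and of all members moved by less than 1 SD between arrays. The fold changes of the 33 named members did so too in all 390 values. However, leaving out 1 of 3 animals cannot move a fold change by that much. The replicate block, the intensity trend and the filter on dim genes leave it unchanged. In those settings the limit therefore cannot tell which members depend on a single array. Gstm5, for example, went from -0.47 to -0.105 without unmated replicate 2. Of the 390 values 23 changed sign, and 20 named members never did. The medians of the mu class and the metallothioneins still moved by over 1.5 times when single arrays were left out. The filter that left out the dimmest 50% of genes also left out Hmox1, Gpx5 and Gsta3, among other members. Signal near background limits Hmox1, Gpx5, Nqo2 and Gstm6. It also limits Gsta3, whose mated mean and value on unmated replicate 3 were near the receptor limit.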
